A study of Rattus norvegicus with 8 samples.

Results

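The transcripts of 36 coagulation and fibrinolysis genes, the clotting cascade, its inhibitors and the system that dissolves fibrin, were examined in the livers of 21-day-old Wistar rats. They were taken from a list of gene symbols, and a gene counted as measured where a non-control probe carried its symbol in the array's gene name column. Of the 36, 35 had a probe among the 26456 names on the array and 33 were bright enough to be tested. Proz, which encodes protein Z, had no probe, and the probes of F13a1 and Plaur were well above background in 0 of 8 samples. Livers of 4 control pups, whose dams ate standard food, were compared with livers of 4 deficient pups, whose dams ate a diet without vitamin B12 and folates. The dams were on these diets from a month before pregnancy until the litters were weaned. Control replicate 1 and deficient replicates 2 and 4 were male, and the other animals were female. The labels name no litters, so some animals of a group could be littermates, and a p-value here reflects only how much these 8 livers vary. The sample titles carry letter and number codes that may mark litters, but their meaning is not stated and they were not used. Each of 4 two-colour arrays carried 1 control and 1 deficient liver in opposite dyes.

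Coagulation runs through serine proteases that activate one another on membrane surfaces until thrombin cleaves fibrinogen to fibrin. Most of these proteins are secreted by hepatocytes. Prothrombin, factors VII, IX and X and proteins C, S and Z bind membranes only after glutamates near their amino terminus have been carboxylated by an enzyme that uses reduced vitamin K, which an epoxide reductase then regenerates. Plasmin, made from plasminogen, dissolves fibrin, and a set of inhibitors restrains both systems. The design compares the diets, and the question here was whether transcripts of vitamin K dependent factors differed from the other members.

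Deficient livers had less RNA for all 3 fibrinogen chains, for prothrombin and protein S, for the vitamin K epoxide reductase Vkorc1, for the inhibitors antithrombin and heparin cofactor II, and for plasminogen, alpha 2-antiplasmin and histidine-rich glycoprotein. Levels are log2 intensities normalised within and between arrays, changes are deficient minus control on that scale with the SE of the fit (n = 4 animals a group), and adjusted p-values are from limma with Benjamini-Hochberg adjustment over all 14905 genes tested. A gene was called at an adjusted p under 0.05. By that rule 12 of the 33 members were lower, where 6.58% of all genes tested were lower, and 1 was higher, where 4.53% of all genes were higher. The other 20 were not called, 3 of them with an unadjusted p under 0.05. The median change of the 33 was -0.32, against 0.01 over all genes. All 4 deficient livers lay below all 4 controls for 11 members (5.99% of all genes) and above them for 1 (5.5% of all genes). In whole liver, fewer cells of a type and less RNA per cell cannot be told apart. Levels of different genes cannot be compared, because each probe has its own brightness.

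**Figure D1:**
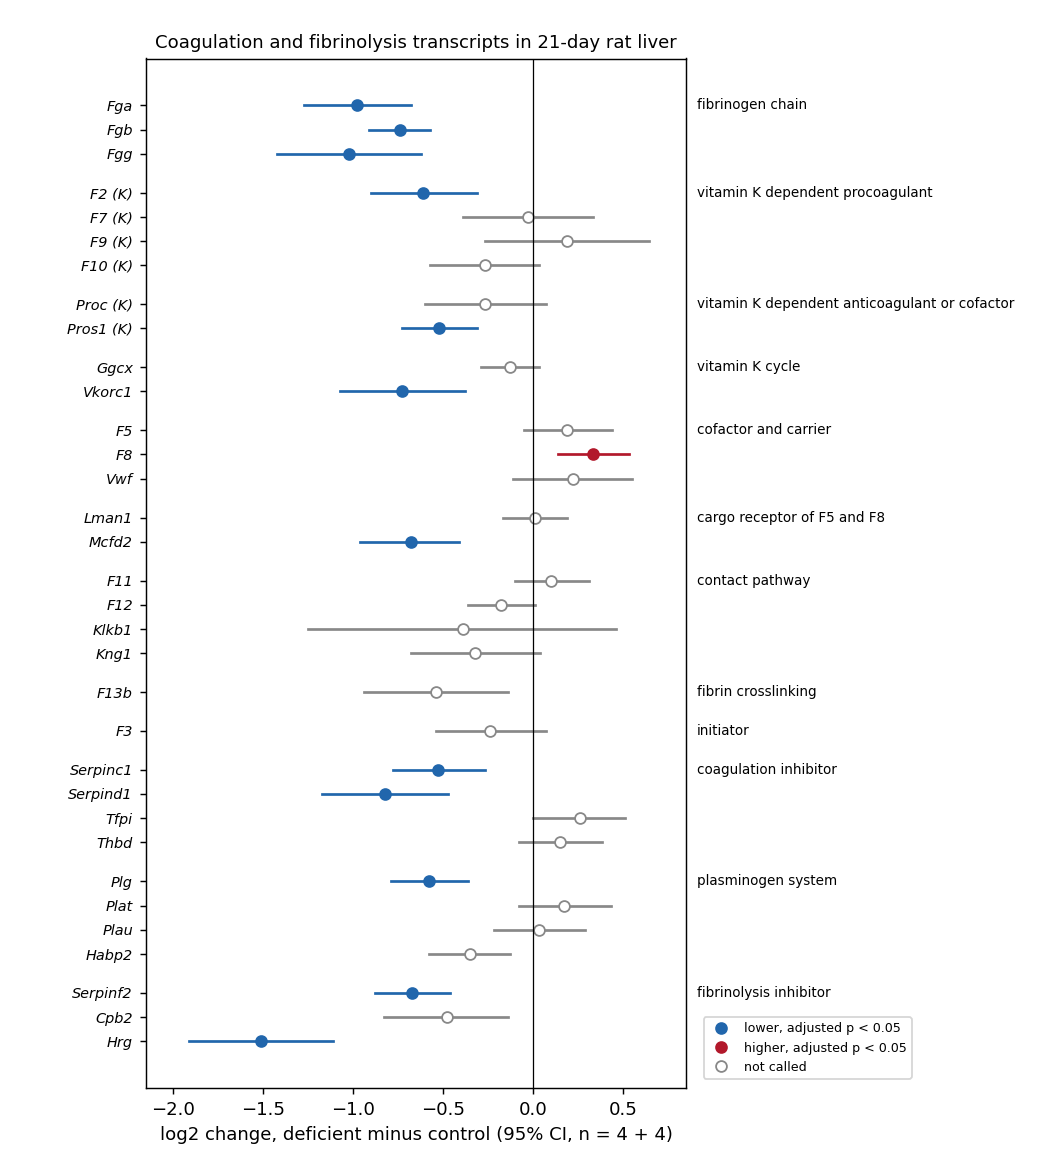
Log2 change of each of the 33 members tested, deficient minus control, by role. Points are limma estimates and bars their 95% confidence intervals (n = 4 animals a group), filled where called, and (K) marks vitamin K dependent factors. The 12 filled blue points lie between -1.51 (Hrg) and -0.52 (Pros1), and the only filled red point is F8 at 0.33.

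The number of calls depended on single libraries. It was 5 lower members without control 2, 4 without control 3, 5 without deficient 4 and 2 without array 3, which holds control 2 and deficient 4. Calls over all genes fell too: in the same order 2.25%, 1.28%, 1.87% and 0.798% of all genes were lower, against 6.58% in the main fit. Without each of the other animals or arrays in turn it lay between 9 and 16, where 2.78% to 12.9% of all genes were lower. With array 3 left out Fgb and Hrg were the 2 members still called lower. The estimated changes of the 13 called members kept their sign in each of 28 alternative analyses. These members were picked by their calls in the same livers, so the kept signs are no separate support. Array 2, which pairs deficient 1 with control 3, had the widest ratios over all genes (SD 0.574, against 0.312, 0.399 and 0.419 on arrays 1, 3 and 4).

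Fibrinogen is a dimer of alpha, beta and gamma chains whose genes Fga, Fgb and Fgg lie side by side. Their rn4 probe positions on chromosome 2 fall within 35.8 kb. Probe sequences of Fga and Fgg are shown because they define what was measured for the largest falls among the clotting proteins. Both are 60 bases long and read 5′ to 3′ on the plus strand, Fga at chr2:174751982-174752041 and Fgg at chr2:174732484-174732543. The exon annotation of that build was not used here.
Fga probe: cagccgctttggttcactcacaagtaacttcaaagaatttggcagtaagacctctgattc
Fgg probe: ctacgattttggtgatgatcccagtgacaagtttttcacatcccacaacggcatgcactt

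All 3 fibrinogen chains fell. Fga read 16.74, 17.11, 17.21 and 17.22 in control replicates 1 to 4 and 15.57, 16.27, 16.25 and 16.28 in deficient replicates 1 to 4, a change of -0.98 ± 0.13 (adjusted p = 0.00418) and a change of -49.2%. The groups were well apart, and deficient 1 lay below the other deficient livers. Fgb read 17.96, 17.99, 17.79 and 18.05 in controls and 17.23, 17.38, 17.06 and 17.15 in deficient livers (-0.74 ± 0.08, adjusted p = 0.00184). Every deficient value lay below the lowest control, and the spread within each group was small. Fgg read 17.18, 17.44, 17.55 and 17.44 in controls and 15.8, 16.76, 16.67 and 16.29 in deficient livers (-1.02 ± 0.18, adjusted p = 0.0101). Deficient 1 was again the lowest, and the groups did not overlap. Fga lost its call without array 3 (adjusted p = 0.0633). Fgg lost its call without control 2, control 3, deficient 4 or array 3, with adjusted p between 0.0507 and 0.135.

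The genes beside the fibrinogen cluster did not all move with it. Lrat, which esterifies retinol in stellate cells, fell by 0.67 ± 0.10 (adjusted p = 0.00521) and Plrg1, a splicing factor gene, was at -0.26 ± 0.13 (adjusted p = 0.257). Of the 3 other genes tested with a probe within 250 kb of a fibrinogen probe, 1 was lower and 2 were not called. The uncalled one not named here carries only a transcript name. The neighbours named here and below were picked after their values were seen.

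The fibrinogen promoters are shown because the 3 genes fell together. They are the 250 bases before the RefSeq start in GRCr8, 5′ to 3′ on the strand of the gene: chr2:170671919-170672168 (plus) for Fga, chr2:170700876-170701125 (minus) for Fgb and chr2:170652833-170653082 (plus) for Fgg. Fga has 2 starts in the table, and the window of the upstream one is used. Capitals mark the interleukin 6 response element CTGGGAA and the HNF1 half-site GTTAAT, or its reverse complement, ATTAAC. Both were searched on both strands, and they do not overlap here.
Fga promoter: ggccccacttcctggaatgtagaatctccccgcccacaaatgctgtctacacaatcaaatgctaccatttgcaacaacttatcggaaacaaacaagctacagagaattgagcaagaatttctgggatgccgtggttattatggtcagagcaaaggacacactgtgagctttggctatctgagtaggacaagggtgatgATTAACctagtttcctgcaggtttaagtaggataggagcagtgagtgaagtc
Fgb promoter: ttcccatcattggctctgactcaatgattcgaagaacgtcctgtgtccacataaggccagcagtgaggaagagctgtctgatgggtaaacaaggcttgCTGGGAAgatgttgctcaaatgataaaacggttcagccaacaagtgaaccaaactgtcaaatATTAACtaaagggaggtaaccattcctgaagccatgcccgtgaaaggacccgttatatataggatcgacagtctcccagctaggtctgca
Fgg promoter: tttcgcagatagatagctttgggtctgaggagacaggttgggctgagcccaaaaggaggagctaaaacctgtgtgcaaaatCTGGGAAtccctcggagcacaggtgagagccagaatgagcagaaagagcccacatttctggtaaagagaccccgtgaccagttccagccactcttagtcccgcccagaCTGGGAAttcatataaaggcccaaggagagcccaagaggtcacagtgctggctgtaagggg

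CTGGGAA occurs in the Fgb and Fgg windows and ATTAAC in those of Fga and Fgb. Over windows of 300 bases, from 250 before to 50 after a start, CTGGGAA was in 11.9% of 27457 genes and GTTAAT in 8.12%, on either strand. Promoters were in the table for 28 of the 36 members, of which 7 held CTGGGAA and 8 held GTTAAT. Of the members called lower with a promoter in the table, 4 of 10 held each motif. Of the uncalled ones, 3 of 15 held CTGGGAA and 4 of 15 held GTTAAT. A match is a run of letters and does not show that a factor binds.

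**Figure D2:**
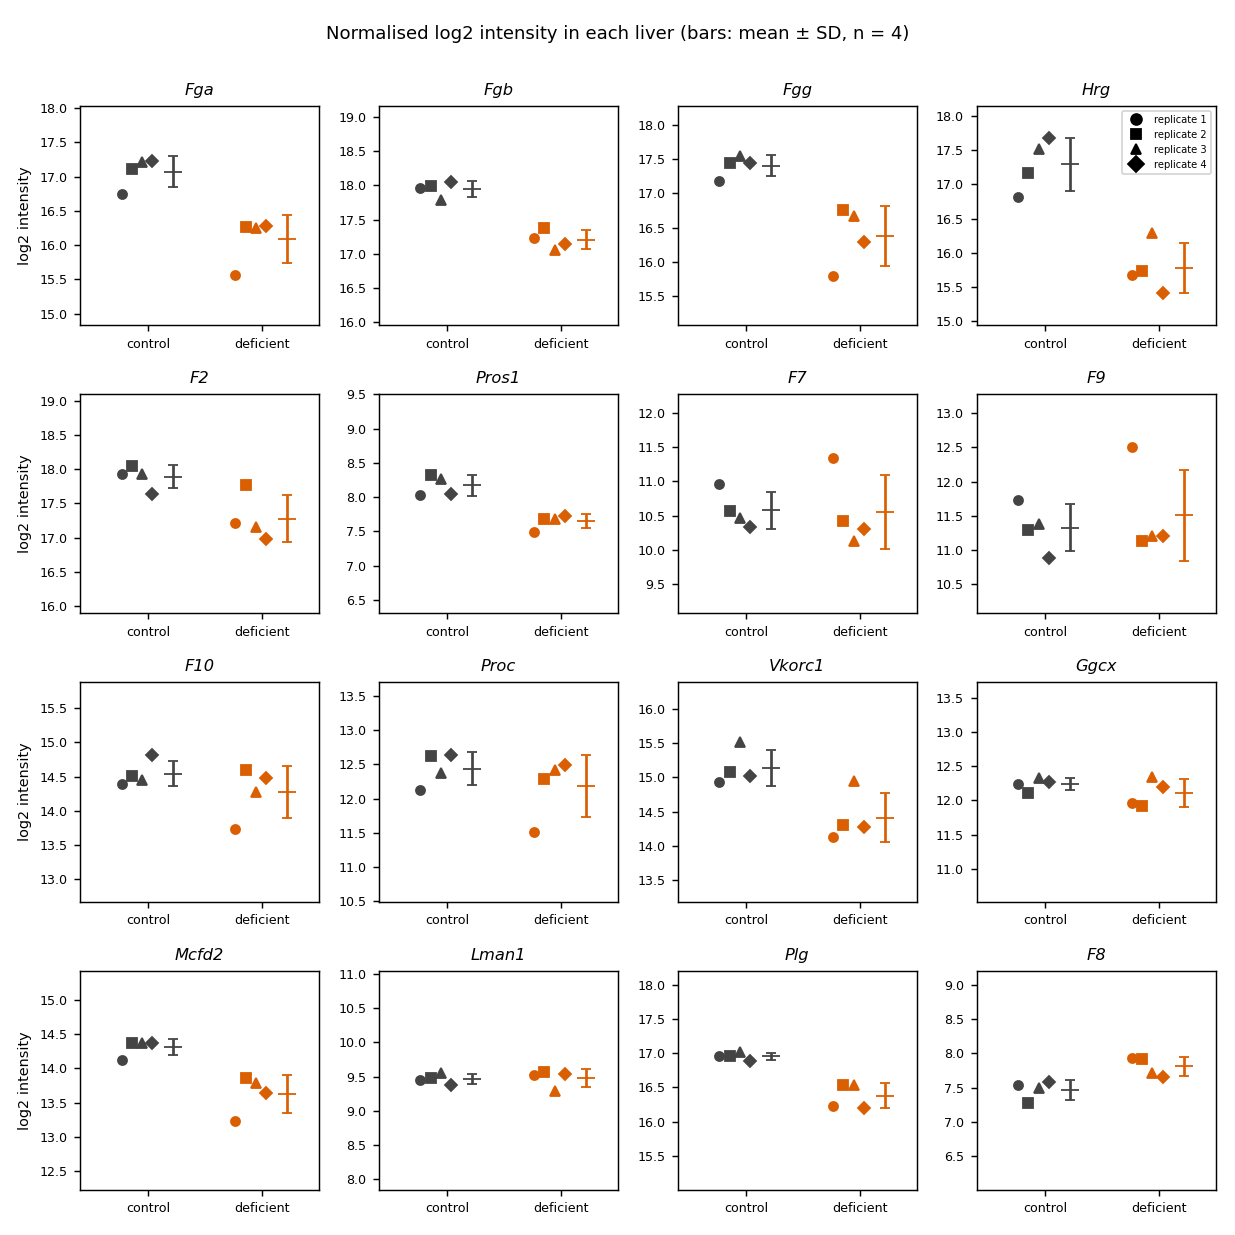
Normalised log2 intensity of 16 members in each liver, with control animals in grey, deficient animals in orange and symbols for replicates 1 to 4. Bars give the mean ± SD (n = 4), and every panel spans the same range of log2 units. Fga, Fgb, Fgg, Hrg, Pros1, Mcfd2 and Plg separate the groups, while F7 and F9 do not and have deficient 1 at the top.

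Of the 6 vitamin K dependent factors tested, 2 fell and 4 were not called. F2, prothrombin, the precursor of thrombin, read 17.93, 18.04, 17.93 and 17.64 in controls and 17.21, 17.77, 17.15 and 16.98 in deficient livers (-0.61 ± 0.13, adjusted p = 0.0218). Deficient 2 lay above control 4, so the groups overlapped. Its call depended on the scaling: in the authors' deposited table the change was -0.27 (adjusted p = 0.157), with quantile scaling -0.37 (adjusted p = 0.0849). Leaving out control 1, 2 or 3, deficient 4 or array 1, 2 or 3 also ended it, with adjusted p between 0.0582 and 0.22. Pros1, protein S, the cofactor of activated protein C, read 8.03, 8.32, 8.27 and 8.05 in controls and 7.49, 7.68, 7.68 and 7.73 in deficient livers (-0.52 ± 0.09, adjusted p = 0.0105). Here the groups did not overlap, and the 4 deficient values were close together. Without control 2, control 3, deficient 4 or array 3 its adjusted p lay between 0.05 and 0.126. With spots in high local background kept, which the main fit left out, Pros1 stood at -0.38 (adjusted p = 0.0668).

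F7 and F9 start and amplify the cascade, as factor VII pairs with tissue factor and factor IX activates factor X. F7 read 10.96, 10.57, 10.47 and 10.33 in controls and 11.34, 10.43, 10.13 and 10.31 in deficient livers (-0.03 ± 0.16, 95% CI -0.39 to 0.33, adjusted p = 0.923). F9 read 11.73, 11.3, 11.38 and 10.89 in controls and 12.51, 11.14, 11.21 and 11.2 in deficient livers (0.19 ± 0.20, 95% CI -0.27 to 0.64, adjusted p = 0.588). For both, deficient 1 was the highest of the 8 animals and control 1 came next. The intervals leave room for changes of either sign.

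F10, the protease that makes thrombin, and Proc, protein C, which inactivates factors V and VIII, had estimates below 0 that were not called. The probe of F10, which lies 24.1 kb from that of F7 on chromosome 16, reads 5′ to 3′ on the minus strand at chr16:81327721-81327780.
F10 probe: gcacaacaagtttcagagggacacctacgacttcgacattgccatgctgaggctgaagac

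F10 read 14.39, 14.51, 14.45 and 14.81 in controls and 13.74, 14.59, 14.27 and 14.48 in deficient livers (-0.27 ± 0.13, 95% CI -0.57 to 0.03, adjusted p = 0.218). Deficient 1 was the lowest, deficient 3 also lay below the controls, and deficient 2 and 4 lay among them. Proc read 12.12, 12.63, 12.38 and 12.64 in controls and 11.51, 12.29, 12.42 and 12.49 in deficient livers (-0.27 ± 0.15, 95% CI -0.60 to 0.07, adjusted p = 0.278). Deficient 1 was again the lowest. F10 was called at -0.42 without deficient 2 (adjusted p = 0.0207) and at -0.40 without array 4 (adjusted p = 0.0374). Thus deficient 1 was at the top of F7 and F9 and at the bottom of F10 and Proc. Of 7 other genes tested within 250 kb of the F7 and F10 probes, 1 was called, Cul4a, a ubiquitin ligase gene, which fell by 0.61 ± 0.15 (adjusted p = 0.034). The other 6 were not called.

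The vitamin K cycle genes gave 1 call. Vkorc1, the epoxide reductase that warfarin inhibits, read 14.93, 15.07, 15.52 and 15.02 in controls and 14.13, 14.3, 14.94 and 14.27 in deficient livers (-0.73 ± 0.15, adjusted p = 0.0199). Deficient 3 stood just above the lowest control, while the other 3 deficient livers were below all controls. The call was lost without deficient 1, control 2, control 3, deficient 4, array 2 or array 3, with adjusted p between 0.0508 and 0.186. Ggcx, the carboxylase itself, read 12.24, 12.11, 12.33 and 12.27 in controls and 11.96, 11.92, 12.34 and 12.2 in deficient livers (-0.13 ± 0.07, 95% CI -0.29 to 0.03, adjusted p = 0.27). Its groups overlapped.

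Set side by side, the vitamin K dependent factors and the other members had similar medians. The 6 factors had a median change of -0.27 and the 27 others one of -0.35, with 2 of 6 and 10 of 27 lower. The others include F8, Vwf, Tfpi, Thbd, Plat, Plau and F3, grouped below as known largely from cells other than hepatocytes. These 7 had a median of 0.17, with 0 lower, and raise the median of the others. The 26 members left without them, the 6 factors included, had a median of -0.50. The factors were not compared with the others without these 7. By array the medians were -0.44, -0.72, -0.20 and -0.06 for the factors on arrays 1 to 4 and -0.08, -0.44, -0.26 and -0.31 for the others. The factors had the lower median on arrays 1 and 2 and the others on arrays 3 and 4, so the order of the classes was not constant.

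**Figure D3:**
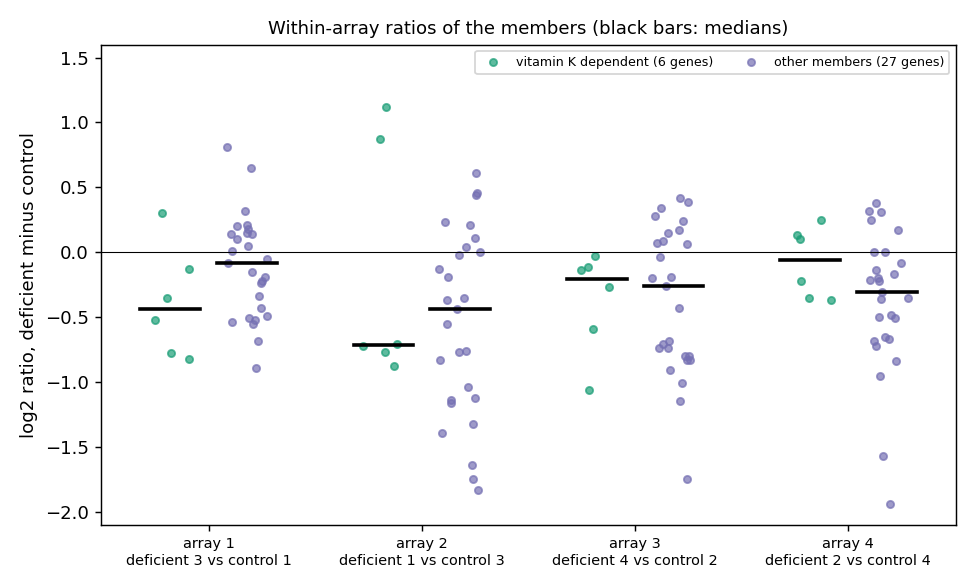
Within-array log2 ratio of each member, deficient minus control, for the 6 vitamin K dependent factors (green) and the 27 other members (purple) on each of the 4 arrays, with black bars at the medians. The green median is the lower one on arrays 1 and 2, the purple one on arrays 3 and 4. On array 2 F7 and F9 lie far above the other vitamin K dependent factors.

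Among the other vitamin K genes and Gla proteins 4 of 17 fell and 1 rose, with a median of -0.08. Over all genes tested 6.58% were lower and 4.53% higher. Cyp4f1 (-1.26 ± 0.11, adjusted p = 0.00105), of a cytochrome family that hydroxylates fatty acids and in other species vitamin K, and Nqo1 (-1.18 ± 0.25, adjusted p = 0.0205), a quinone reductase, fell. Cyp4f5 rose by 0.69 ± 0.12 (adjusted p = 0.00992) and Cyp4f4 fell by 0.46 ± 0.11 (adjusted p = 0.03). The Cyp4f genes are close relatives whose probes may share signal.

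Of the cofactors, F8 rose and F5 and Vwf were not called. F8, the cofactor of factor IXa, read 7.54, 7.27, 7.5 and 7.59 in controls and 7.94, 7.92, 7.72 and 7.66 in deficient livers (0.33 ± 0.09, adjusted p = 0.0423). All deficient values were above all controls, by a narrow margin. This call was weak: it was lost without each of control 1, 2, 3 and 4, deficient 1, 3 and 4 and arrays 1, 2 and 3 in turn (adjusted p between 0.0576 and 0.25), and with the array correlation lowered by the offset it shows in simulated data (adjusted p = 0.0554). F5, the cofactor of factor Xa, changed by 0.19 ± 0.11 (adjusted p = 0.285). Vwf, which carries factor VIII in plasma, stood at 0.22 ± 0.14 (adjusted p = 0.362), and its 3 probes gave changes of 0.11 to 0.22. Vwf was called at 0.41 without deficient 2 or without array 4 (adjusted p = 0.0222 and 0.0372).

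F8 and Vwf are made in endothelium. Of 12 endothelial markers tested, limma called 0 and 3 had an unadjusted p under 0.05. Their median change was 0.10, and their summed linear intensity was 17673 to 21125 in controls and 15750 to 18544 in deficient livers. The part of endothelial cells in the change of F8 was not tested.

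Lman1 and Mcfd2 together form the receptor that carries factors V and VIII out of the endoplasmic reticulum, and their transcripts behaved differently. Mcfd2 read 14.13, 14.37, 14.37 and 14.37 in controls and 13.23, 13.86, 13.79 and 13.64 in deficient livers (-0.68 ± 0.12, adjusted p = 0.0108). Its groups did not overlap. The call was lost without control 2, control 3, deficient 4 or array 3 (adjusted p between 0.0538 and 0.141). Lman1 stood at 0.01 ± 0.08 (95% CI -0.17 to 0.19, adjusted p = 0.93). The difference between the 2 changes was not tested.

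None of the 4 contact pathway genes was called by limma, and 0 had an unadjusted p under 0.05. F11 stood at 0.10 ± 0.09, F12 at -0.18 ± 0.08 and Kng1, a kininogen gene, at -0.32 ± 0.16. Without deficient 1, F12 was called at -0.26 (adjusted p = 0.0459), and Kng1 was called at -0.50 without deficient 2 and at -0.56 without array 4 (adjusted p = 0.0317 and 0.026). Klkb1, plasma prekallikrein, had the largest SD of the members, and read 12.4, 14.14, 12.77 and 14.7 in controls and 12.97, 13.13, 13.21 and 13.13 in deficient livers (-0.39 ± 0.38, adjusted p = 0.541). Its SD was 1.09 in controls and 0.0987 in deficient animals, with controls 2 and 4 high and controls 1 and 3 low. F11 lies 23.9 kb from Klkb1 by probe position and had a control SD of 0.0502.

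F13b, the carrier subunit of the transglutaminase that crosslinks fibrin, stood at -0.54 ± 0.18 (adjusted p = 0.084). It was called without deficient 2, deficient 3 or array 1 (adjusted p = 0.0414, 0.0301 and 0.0377). F3, tissue factor, which starts coagulation, stood at -0.24 ± 0.13 (adjusted p = 0.291).

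Of 4 coagulation inhibitors, the 2 serpins fell and the 2 others were not called. Serpind1, heparin cofactor II, an inhibitor of thrombin, read 14.55, 14.86, 14.67 and 15.03 in controls and 13.34, 14.19, 14.33 and 13.95 in deficient livers (-0.82 ± 0.15, adjusted p = 0.0132). Serpinc1, antithrombin, which inhibits thrombin and factor Xa, read 17.12, 17.21, 17.32 and 16.74 in controls and 16.56, 16.66, 16.57 and 16.5 in deficient livers (-0.53 ± 0.11, adjusted p = 0.0222). Neither gene's groups overlapped, although control 4 came close to the deficient livers for Serpinc1. In the authors' deposited table Serpinc1 stood at -0.24 (adjusted p = 0.139), and it lost its call without control 1, 2 or 3, deficient 4 or array 1, 2 or 3 (adjusted p between 0.0549 and 0.213). Serpind1 lost its call without control 2, control 3, deficient 4 or array 3 (adjusted p between 0.0595 and 0.144). Tfpi, the inhibitor of the tissue factor complex, stood at 0.26 ± 0.11 (adjusted p = 0.181), and Thbd, thrombomodulin, which turns thrombin towards protein C, at 0.15 ± 0.10 (adjusted p = 0.366). The second probes of Tfpi and Thbd were well above background in 2 and 0 of 8 samples.

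In the plasminogen system Plg alone was called. Plg, plasminogen, read 16.96, 16.95, 17.01 and 16.89 in controls and 16.23, 16.53, 16.53 and 16.2 in deficient livers (-0.58 ± 0.09, adjusted p = 0.00846). The groups were apart and the controls nearly equal. In the authors' deposited table Plg stood at -0.31 (adjusted p = 0.0515), and it lost its call without control 3 or array 3 (adjusted p = 0.065 and 0.115). The activators Plat (0.17 ± 0.11) and Plau (0.03 ± 0.11) were not called. Plat was called at 0.31 without deficient 2 and at 0.34 without array 4 (adjusted p = 0.0307 and 0.0341). Habp2, a protease that activates urokinase and factor VII, read 13.13, 12.79, 13.03 and 12.69 in controls and 12.68, 12.49, 12.45 and 12.6 in deficient livers (-0.35 ± 0.10, adjusted p = 0.0557). Its groups did not overlap, by a margin of 0.01, and its other probe stood at -0.46 ± 0.12 (adjusted p over probes = 0.0431).

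All 3 fibrinolysis inhibitors had estimates below 0, and 2 were called. Hrg, histidine-rich glycoprotein, which binds plasminogen and heparin, had the largest change of all members. Its probe is shown for that reason, 5′ to 3′ on the minus strand of chromosome 11 at chr11:80248652-80248711.
Hrg probe: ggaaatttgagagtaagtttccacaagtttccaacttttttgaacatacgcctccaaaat

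Hrg read 16.81, 17.16, 17.51 and 17.68 in controls and 15.68, 15.74, 16.29 and 15.42 in deficient livers (-1.51 ± 0.17, adjusted p = 0.00274), a ratio of 0.352. Every deficient liver was below every control, and Hrg was called in each of the 28 alternative analyses. Serpinf2, alpha 2-antiplasmin, the main inhibitor of plasmin, read 15.14, 15.28, 15.1 and 14.91 in controls and 14.27, 14.41, 14.6 and 14.48 in deficient livers (-0.67 ± 0.09, adjusted p = 0.00496). The groups did not overlap, and without array 3 its adjusted p was 0.07. Cpb2, a carboxypeptidase that protects fibrin, stood at -0.48 ± 0.15 (adjusted p = 0.076), and was called without deficient 2 (-0.68, adjusted p = 0.00471) and without array 4 (-0.69, adjusted p = 0.0107).

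Of 14 other gene names tested within 250 kb of the Hrg and Kng1 probes, 6 were lower and 8 were not called. Over all genes tested 6.58% were lower. Some of these names are only probe or transcript names. LOC681544, whose probe lies next to that of Hrg, was among the lower ones at -1.71 ± 0.32 (adjusted p = 0.0132). Whether it is a gene separate from Hrg was not examined. Fetub and Ahsg, which encode the fetuins, fell by 1.19 ± 0.14 and 0.55 ± 0.12 (adjusted p = 0.00287 and 0.0238). Kng1 and its paralogue Kng2 (-0.12 ± 0.10, adjusted p = 0.463) were not called. The probes of the kininogen paralogues may share signal.

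Members known largely from cells other than hepatocytes, grouped after their values were seen, had estimates mostly above 0. For F8, Vwf, Tfpi, Thbd, Plat, Plau and F3 the median was 0.17, with 0 of 7 called lower and 1 higher, and 1 had an unadjusted p under 0.05. For the other 26 it was -0.50, with 12 lower. All log2 intensities of these 7 lay below 11, and calls were rarer among dim genes: 2.53% of genes with a mean log2 intensity under 8 were lower, against 17.1% of the 257 genes at 16 or more. In that brightest class 7 of 8 members were lower, with a median of -0.67 where all 257 genes had a median of -0.01. With the authors' deposited table, of these 8 members 4 were lower, with a median of -0.35, and the 257 genes had a median of 0.13. Of the 257 genes 8.95% were then lower and 12.8% higher, whereas in the main fit 3.89% were higher. Lower calls thus outnumbered higher ones among the brightest genes in the main fit but not with the authors' scaling. With that scaling 2.37% of genes under 8 were lower, so lower calls stayed rarer among dim genes. No spot was saturated.

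**Figure D4:**
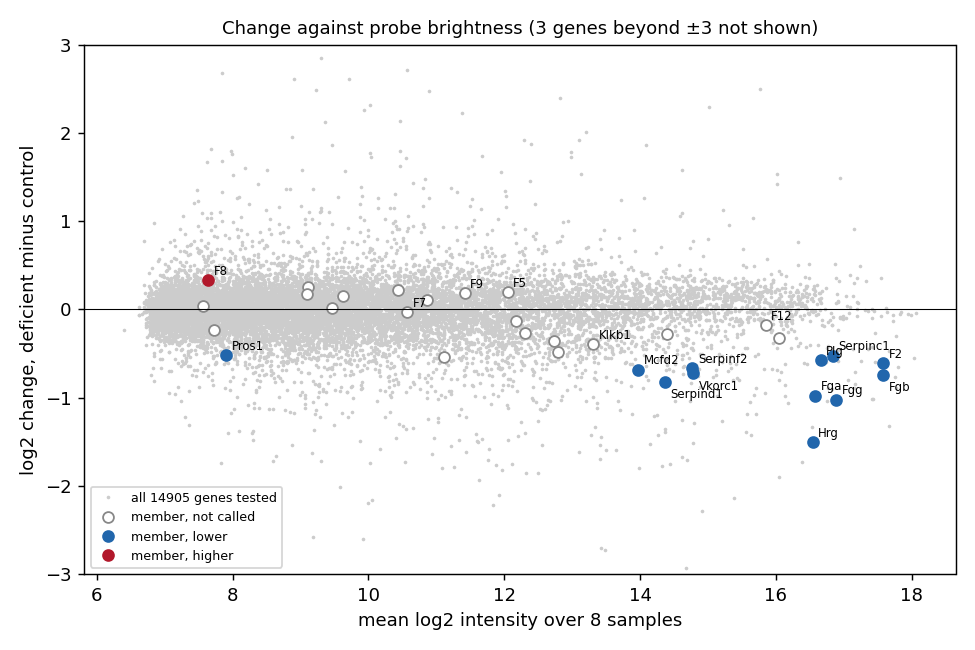
Log2 change, deficient minus control, against the mean log2 intensity over 8 samples for all 14905 genes tested (light grey) and the members (open where not called, blue where lower, red where higher). Most blue points lie among bright probes, with Pros1 among the dim ones. The 3 genes beyond 3 log2 units are not drawn.

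Other secreted liver proteins were counted in lists of related genes, where 6.58% of all genes tested were lower and 4.53% higher. Of 18 interleukin 6 acute phase genes outside coagulation, 12 fell and 2 rose (median -0.62), among them Cp, ceruloplasmin, at -1.05 ± 0.08 and C3 at -1.02 ± 0.12. Hamp, hepcidin, fell by 2.73 ± 0.36, while Cd14, a lipopolysaccharide receptor, rose by 1.38 ± 0.09. Of 30 complement genes 11 fell and 0 rose (median -0.41), with Mbl2 at -1.22 ± 0.09, C4bpb, which binds protein S in plasma, at -0.86 ± 0.09, Masp1 at -0.87 ± 0.10 and Vtn at -0.89 ± 0.11. Of 31 other plasma proteins 15 fell and 2 rose (median -0.55), including Igfals at -2.16 ± 0.13 and Apoa2, which rose by 1.86 ± 0.14. Some genes are in more than 1 of these lists. Falls were thus found in all 3 lists, and the lists were not tested against the members.

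Of 20 other haemostasis genes 5 fell and 0 rose (median -0.20), to be read beside the same shares over all genes. The falls were -0.80 ± 0.17 for Fgl1, a fibrinogen-like protein, -0.59 ± 0.13 for Serpina1, alpha 1-antitrypsin, -1.25 ± 0.31 for A2m, alpha 2-macroglobulin, and -0.49 ± 0.12 for Lrp1, a clearance receptor. Among 24 regulators of liver secretory genes 5 fell and 1 rose (median -0.11). The rise, of Dbp (1.38 ± 0.36, adjusted p = 0.0442), was the largest change of the list, with overlapping groups. The falls were led by Il6r, the interleukin 6 receptor (-0.61 ± 0.09, adjusted p = 0.00629), and Ghr, the growth hormone receptor (-0.98 ± 0.16, adjusted p = 0.00905). Nr1h4, the bile acid receptor FXR (-0.82 ± 0.15, adjusted p = 0.0127), and Stat5a (-0.45 ± 0.11, adjusted p = 0.0318) came next.

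Markers of cell types were counted as well, where 6.58% of all genes tested were lower and 4.53% higher. Outside the hepatocyte and neutrophil lists at most 1 marker of a type was called. Of 10 hepatocyte markers 3 fell and 1 rose (median -0.33), with a summed linear intensity of 890818 to 1224853 in controls and 634841 to 946695 in deficient livers. Some of these markers are secreted proteins that are also in the lists above. Of 6 neutrophil markers 5 fell (summed 2251 to 4060 against 1380 to 2041), of 7 platelet markers 1 fell (1496 to 1756 against 1322 to 1706) and of 12 Kupffer cell markers 1 rose (40554 to 61926 against 36505 to 56695). Ppbp, a defining platelet gene, was well above background in 0 of 8 samples. Of 9 stellate cell markers 1 fell (34325 to 57422 against 27601 to 58833) and of 8 erythroid markers 1 rose (295196 to 582555 against 156858 to 457043). Of 7 skeletal muscle markers 1 rose, Tnnc2, a fast muscle troponin (2.85 ± 0.19, adjusted p = 0.000469), which was higher in all 4 deficient livers. The 6 others, not called, summed to between 1633 and 1945 in controls, to 1894, 1596 and 1973 in deficient 1, 2 and 4 and to 9624 in deficient 3. On array 1, which holds deficient 3, the median log2 difference of the 7 was 2.22. Of 5 cholangiocyte markers 0 was called by limma, and 1 had an unadjusted p under 0.05. The part of these markers in the members' changes was not tested.

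With sex in the fit, 9 members were called, all lower and all among the 12. In that fit 3.21% of all genes tested were lower, against 6.58% in the main fit. F2, Vkorc1, Serpinc1 and F8 were not called in it (adjusted p = 0.0522, 0.0525, 0.0561 and 0.111). For sex itself limma called 0 of 33 members, and also 0 of all 14905 genes tested. Of the members, 2 had an unadjusted p under 0.05 for sex. The diet by sex term rests on a single male control, so no calls are given for it.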

How the data were processed

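Agilent 2-colour rat array spot intensities were deposited by the authors, and the submitters' processing notes name Agilent Feature Extraction 10.7.1.1. Probe positions in the files are in rn4. Files of samples that share an array are identical, and the dye labels tell the channels apart. The authors' deposited table of normalised linear intensities, made by a method that the labels do not state, served as an alternative.

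In limma 3.58.1 (R 4.3.3), spots with local background over 5 times the median (74 values) were left out, intensities were corrected by normexp (offset 50), and loess and Aquantile normalisation gave log2 values, whereas the deposited intensities are linear. Between 59.1% and 65.5% of spots were well above background. Probes needed this in 4 of 8 samples, and the brightest probe stood for a gene. The fit had diet and dye as terms and array as a random block (correlation 0.421). On simulated data of 14905 genes it recovered 34% of log2 changes of 0.5 and 86% of those of 1, with 6.25% of calls false, and returned an array correlation of 0.488 where 0.421 was simulated. Only 100 genes of each size were changed there, against 1656 genes called in the data. The shares recovered need not hold for the data.

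Members and lists were chosen with earlier results of these data known. Values per animal are given for all called members, the vitamin K dependent factors, fibrinogen chains and vitamin K cycle enzymes. For at most 4 genes of each other list, by smallest p, only the change is given. Marker genes are given by counts and sums. Klkb1 and Habp2 were given per animal, and neighbours and Dbp were named, after their values were seen. Sequences are from the probe files and, for promoters, RefSeq (GRCr8). Figures were drawn with matplotlib.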

Additional observations from a re-analysis of the deposited data

Results flagged for a closer look

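In 6 of 66 groups of 4 values tested, 1 animal lay farther from the others than Dixon's 95% critical value allows, while chance gives about 1 in 20 groups. In deficient livers deficient 1 stood apart for Fga (15.57, others 16.25 to 16.28), F9 (12.51, others 11.14 to 11.21) and F11 (10.62, others 10.98 to 11.03). Deficient 3 stood apart for Lman1 (9.29, others 9.53 to 9.56). Among controls, control 3 stood apart for F5 (11.76, others 11.99 to 12.03) and control 1 for Mcfd2 (14.13, others all 14.37). Without deficient 1, Fga stayed called.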

How the results depend on the processing

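Of 28 alternatives, 12 left out 1 animal or array and 16 changed another choice. The lowered array correlation was chosen after seeing the data and gave 12 lower and 0 higher members and 1290 genes called. The count of lower members, 12, kept within 1.5 times of itself in 21 of 28. It fell to 4 with within-array ratios (460 genes called), to 7 without the array block (399 genes) and to 1 in females only (50 genes). In these 3, with the deposited table, with sex as a term (810 genes) and with spots of high background kept (952 genes), 0 members were higher, where the cause was not tested. Array weights gave 2689 genes called against 1656. Leaving out animals or arrays gave 2 to 16 lower members, 0 to 3 higher ones and 212 to 3542 genes called. The median of the vitamin K dependent factors lay between -0.52 and -0.17 and that of the others between -0.41 and -0.29, except -0.56 in females only. The 13 called members, picked by their calls in the same livers, changed sign in 0 alternatives, and 8 uncalled members were called in at least 1.

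With 4 arrays the array correlation is estimated too high, which can make p-values too small. Dim probes limit what can be seen, since 2 members were below background.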
